A study of Mus musculus with 4 samples.

Results

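The Zfp genes carry the mouse name for zinc finger protein. They were chosen by symbol, as loci named Zfp followed by a number and at most 1 letter, without Zfp42 and Zfp57. A member had to be a single-gene locus with a symbol that occurred once in each of the 2 deposited tables, which gave 288 of 11728 genes. RNA was measured by sequencing in mouse embryonic stem cells, which are cultured cells able to form every tissue of the embryo. Every cell carried Rosa26CreER, a tamoxifen-activated Cre recombinase expressed from the Rosa26 locus, with 1 floxed and 1 null allele of Chd1, so the controls also had a single functional allele. Chd1 encodes an ATP-dependent remodeler of nucleosomes at transcribed genes. Controls received ethanol, and Chd1-null cells received tamoxifen at 1 µM, for 48 to 72 h. Serum medium with LIF then carried both through 3 to 5 passages. The lines were derived independently, and the labels name set 1 and set 2 without tying a set to a line. Each set had 1 control and 1 Chd1-null library, so n = 2 per group. The same number of viable cells went into each RNA sample, and synthetic spike-in transcripts were added.

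Most Zfp proteins bind DNA through tandem C2H2 zinc fingers, short loops held by a zinc ion between a pair of cysteines and a pair of histidines. Many also carry a KRAB box, a domain that recruits the co-repressor Trim28 and, through it, the H3K9 methyltransferase Setdb1. In embryonic stem cells this machinery silences endogenous retroviruses and protects imprinted regions. Other proteins with a Zfp symbol act on RNA, on ribosomes or in protein modification.

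Values were taken as FPKM, by definition fragments scaled to transcript length and sequencing depth, so levels can be compared between genes. Whether the spike-ins set the scaling between these libraries is not given. Read depth is unknown, and no counting interval is given. FPKM summed to 584520 and 719549 in the controls of sets 1 and 2, and to 466994 and 518032 in their Chd1-null counterparts. Chd1 stood at 27.6 and 17.9 FPKM in the controls and at 5.71 and 8.52 in the Chd1-null libraries (limma adjusted p = 1.8e-08). The value covers the whole locus and does not measure functional transcript. All 10 listed embryonic stem cell markers were in both tables. Their summed level was 2773 and 3403 FPKM in the controls and 2015 and 1904 in the Chd1-null libraries, most of it Dppa5a and Pou5f1. The median log2 ratios of Chd1-null over control were -1.04 and -0.89 for these markers, against -0.46 and -0.33 for all tested genes. In limma 8 of the 10 fell (adjusted p under 0.05), against 9.80% of all tested genes. Their median level was 59.6 FPKM, and in deciles 9 and 10 of level 16.8% and 19.4% of genes other than Zfp genes fell. Relative to genes of the same level, a comparison described below, 0 of the 10 passed. Of 8 fibroblast markers 6 were in both tables. They summed to 10.6 and 46.7 FPKM in the controls, against 14.8 and 18.9 without Chd1, most of it the actin Acta2, which other cells also make. Of 7 primitive endoderm markers 2 were in both tables, with sums between 0.451 and 1.31 FPKM. Of 7 neural markers 6 were, with sums of 49.5 and 34.7 FPKM in the controls and 31.3 and 28.5 without Chd1. Most of this was Tubb3 (34.0 and 20.9 FPKM in the controls) and Nes (11.9 and 9.37). Pax6, Sox1, Map2 and Neurog2 reached at most 2.69 FPKM in any library. The part of these markers in the values of the Zfp genes was not tested.

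The label was checked against coding sequences of GENCODE M21, in which 280 of the 288 genes encoded at least 1 C2H2 finger. The median was 10 fingers, and Zfp142 had the most, 37. The 8 genes without a match to the finger pattern were Zfp36, Zfp185, Zfp259, Zfp330, Zfp365, Zfp750, Zfp839 and Zfp935. Of these, Zfp36 (tristetraprolin) binds AU-rich mRNA through zinc fingers of another type and hastens its decay. A KRAB box pattern matched 114 genes (39.6%). A diverged box can escape the pattern, so the other 174 genes are those without a match. In RefSeq gene order (GRCm38.p6), 150 genes (52.1%) had another Zfp gene as the next protein-coding gene on at least 1 side. For 15 genes the nearest other protein was at least 90% identical, and reads of such copies may be split between them, so their values are uncertain. Examples are Zfp955a and Zfp955b (95.4% identical), Zfp808 and Zfp934 (92.4%), and Zfp600 with Rex2 (95.1%).

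Zfp genes were transcribed at low levels. Their median over the 4 libraries was 3.18 FPKM (quartiles 1.44 and 6.55), 42 genes reached 10 FPKM and 14 reached 20. By library, the median was 3.42 and 3.53 FPKM in the controls of sets 1 and 2, and 2.09 and 2.92 without Chd1. Tests were run on genes with a mean of at least 1 FPKM, which 244 Zfp genes reached. Their median level of 3.77 FPKM compares with 9.07 for all 10261 tested genes, and 144 of them (59.0%) lay in the lowest 3 deciles of level. At the threshold, Zfp786 stood just outside with a mean of 0.978 FPKM and Zfp873 just inside with 1.01.

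**Figure D1:**
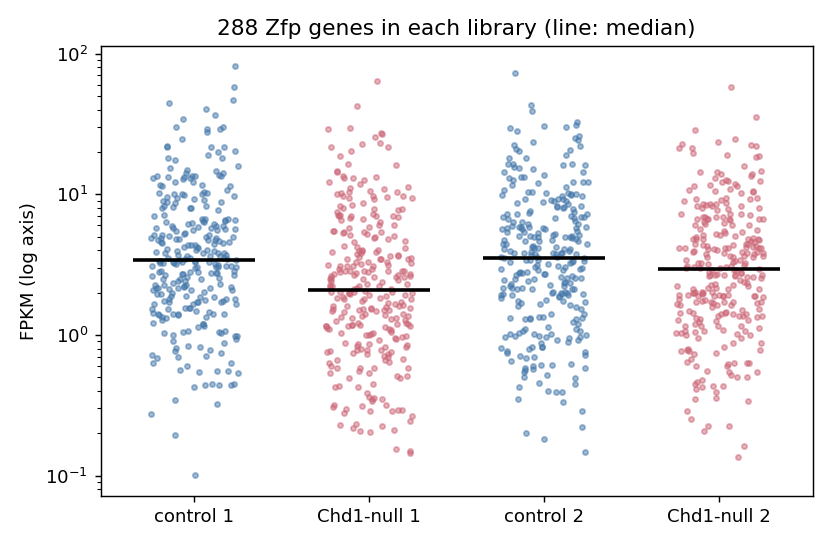
FPKM of the 288 Zfp genes in each library on a log axis, with 1 point per gene and a line at the median. The medians are 3.42 and 3.53 in the controls and 2.09 and 2.92 in the Chd1-null libraries, and the ranges of the libraries overlap.

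The most abundant member was Zfp207, which encodes a protein of microtubules and the spindle checkpoint. It stood at 81.1 and 72.5 FPKM in the controls of sets 1 and 2 and at 63.6 and 58.1 in the Chd1-null libraries. The groups did not overlap, but the log2 change of -0.34 did not pass (limma adjusted p = 0.183). The others of the 6 highest were Zfp106, Zfp622, Zfp740, Zfp568 and Zfp428. Zfp622, a factor in maturation of the large ribosomal subunit, had 46.5 and 30.1 FPKM in the controls and 42.5 and 22.8 without Chd1. Its control 2 value lay below its Chd1-null 1 value, so the groups overlapped. Zfp568, a KRAB protein known to silence a placental promoter of Igf2, had 44.9 and 32.8 FPKM in the controls and 29.7 and 24.8 without Chd1 (limma adjusted p = 0.077). Zfp428 had 40.5 and 24.1 FPKM in the controls and 27.3 and 18.5 without Chd1, with overlap between the groups (adjusted p = 0.103). Zfp568 was the only KRAB match among these 6.

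In these bulk samples, fewer cells of a type and less RNA per cell cannot be told apart. The first question was how the family moved on the deposited scale, and the answer differed between the sets. In set 1 the median tested Zfp gene stood at 0.662 of its control (log2 ratio -0.60, quartiles -0.92 and -0.34), and 235 of 244 genes (96.3%) were lower. In set 2 it stood at 0.831 of control (log2 ratio -0.27, quartiles -0.50 and -0.02), with 185 genes (75.8%) lower, but there the sign of the median turned to 0.20 when each library was divided by its own total. Over all tested genes the medians were -0.46 and -0.33, with 87.3% and 82.4% lower. Zfp genes thus had a lower median than all genes in set 1 and a higher one in set 2. The change was lower in set 1 than in set 2 for 185 Zfp genes (75.8%) and for 57.9% of all tested genes. A difference between sets cannot be tested with 1 library of each kind per set.

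Of the 244 tested genes, 179 (73.4%) were lower in both sets, 3 were higher in both and 62 went opposite ways. The same shares over all tested genes were 72.4% and 2.81%. Both Chd1-null libraries lay below both controls for 123 Zfp genes (50.4%), against a background of 52.6% of all tested genes, a share near the background. Both lay above both controls for 1 gene, Zfp691, against a background of 0.867%. At most 50% of the control value remained in set 1 for 55 genes (22.5%), in set 2 for 15 (6.15%) and in both for 5 (2.05%). Over all tested genes these shares were 18.7%, 5.86% and 2.14%. The 5 genes were Zfp36, Zfp382, Zfp385a, Zfp524 and Zfp839. The 44 genes under the level for testing had median log2 ratios of -0.77 and -0.12, with 42 lower in set 1 and 26 in set 2. Other genes of the lowest tested decile of level had medians of -0.97 and -0.24.

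**Figure D2:**
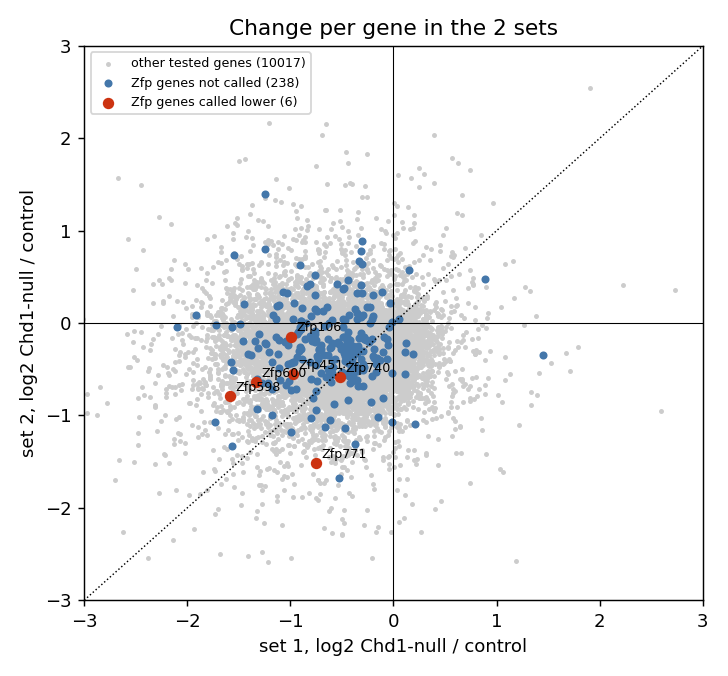
Log2 ratio of Chd1-null over control in set 1 (x axis) and set 2 (y axis) for 244 Zfp genes (coloured) and 10017 other tested genes (grey), with equal change on the dotted line and 10 other genes outside the axes. Zfp genes lie within the cloud of other genes, and 185 of 244 lie above the dotted line.

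Single genes were tested with limma over all 10261 genes (log2 of FPKM + 0.1, set as a block, Benjamini-Hochberg adjustment at 0.05). The p-values of this test use a spread fitted over all tested genes as a trend on level. Disagreement between the sets in a single gene therefore does not raise its p-value. The fitted spread comes from these samples only and may be technical. In this test 6 Zfp genes fell (2.46%), against a background of 9.80% of all tested genes. None rose in limma, against 0.0682%, and none was higher at an unadjusted p under 0.05 either, against 0.263%. Without adjustment 38 Zfp genes (15.6%) were lower, against 28.9% of all genes. The share of other genes that fell increased with level, from 0.913% in the lowest decile to 19.4% in the highest, as the median standard error went down from 0.676 to 0.172. At the share of other genes in each decile, 13.5 of the Zfp genes would have been among those that fell. With no block, or with 1 common prior variance, 0 Zfp genes passed in limma (lowest adjusted p of a member 0.461 and 0.288, with 13 and 43 members at an unadjusted p under 0.05, beside 1043 and 1718 of all 10261 genes). With libraries divided by their totals 0 passed as well (lowest 0.0838, with 2 members unadjusted, beside 734 of all genes).

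Zfp598, an E3 ubiquitin ligase that marks collided ribosomes, had the lowest adjusted p. The controls of sets 1 and 2 had 30.2 and 19.0 FPKM, and their Chd1-null counterparts 9.99 and 10.9. Both Chd1-null values lay below both controls, at 33.1% and 57.6% of control. The log2 change was -1.19 with a limma SE of 0.23 (adjusted p = 5.4e-05).

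Zfp771, a C2H2 protein with 8 fingers, fell by 1.13 ± 0.22 (limma SE, adjusted p = 9.2e-05). Its values were 21.9 and 12.9 FPKM in set 1 and 29.6 and 10.3 in set 2, control first. It is the one gene of the 6 that was much lower in set 2 (34.8% of control) than in set 1 (59.1%).

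Zfp106, a large RNA-binding protein needed in motor neurons, went from 57.9 to 29.0 FPKM in set 1, and in set 2 from 39.3 to 35.4. The groups did not overlap, and nearly all of the change was in set 1. The log2 change was -0.57 with an SE of 0.19 (limma adjusted p = 0.032). Zfp740, a small C2H2 protein, went from 36.7 to 25.6 FPKM and from 43.0 to 28.6. The sets gave like ratios, 69.7% and 66.5% of control (log2 change -0.55, SE 0.19, limma adjusted p = 0.046).

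Zfp451, a SUMO E3 ligase, and Zfp600, of a zinc finger cluster on chromosome 4, are named because they passed, after their values were seen. Zfp451 went from 13.5 to 6.80 FPKM in set 1, and in set 2 from 12.2 to 8.28 (log2 change -0.77, SE 0.27, limma adjusted p = 0.045). Its groups did not overlap. Zfp600 went from 4.76 to 1.83 FPKM in set 1, and in set 2 from 12.2 to 7.82 (log2 change -0.99, SE 0.34, adjusted p = 0.040). The Zfp600 groups overlapped, as control 1 lay below Chd1-null 2, and its reads may be shared with Rex2. Of these 6 genes only Zfp598 and Zfp771 also passed with a minimum mean of 5 FPKM, and Zfp106, Zfp598 and Zfp771 with a pseudocount of 1.

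**Figure D3:**
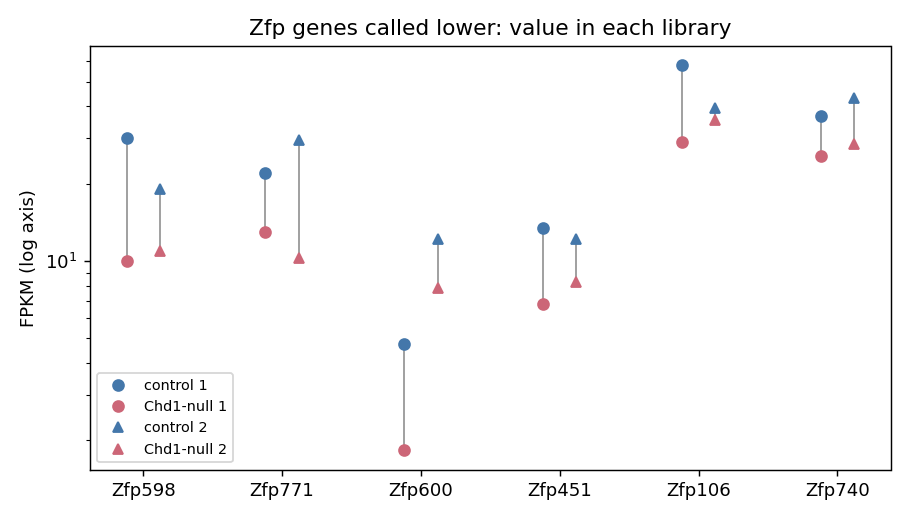
FPKM (log axis) of the 6 Zfp genes that fell, in each library, with set 1 as circles and set 2 as triangles, and a grey line joining both libraries of a set. Every line goes down, from 30.2 to 9.99 FPKM for Zfp598 in set 1 and from 39.3 to 35.4 for Zfp106 in set 2.

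Promoters are shown for the genes of this group whose 250 bases before the most upstream RefSeq start (GRCm38.p6) held no annotated exon. Capitals mark any match to CCAAT, letters that the factor NFY can bind, or to the reverse complement ATTGG. Binding was not measured. Zfp598 (chr17:24669437-24669686, plus strand) had none, Zfp451 (chr1:33814596-33814845, minus strand) had 1 on the opposite strand, and in Zfp106 (chr2:120563860-120564109, minus strand) 1 on each strand overlapped.
Zfp598: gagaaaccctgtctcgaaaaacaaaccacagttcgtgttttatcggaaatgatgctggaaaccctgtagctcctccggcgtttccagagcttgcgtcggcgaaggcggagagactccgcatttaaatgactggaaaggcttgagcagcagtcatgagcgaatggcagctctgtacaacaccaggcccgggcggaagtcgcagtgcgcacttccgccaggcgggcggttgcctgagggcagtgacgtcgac
Zfp451: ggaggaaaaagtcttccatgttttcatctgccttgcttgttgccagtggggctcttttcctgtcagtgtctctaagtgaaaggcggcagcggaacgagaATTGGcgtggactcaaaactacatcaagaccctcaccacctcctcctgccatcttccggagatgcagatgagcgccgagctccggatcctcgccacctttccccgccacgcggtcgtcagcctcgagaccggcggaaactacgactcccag
Zfp106: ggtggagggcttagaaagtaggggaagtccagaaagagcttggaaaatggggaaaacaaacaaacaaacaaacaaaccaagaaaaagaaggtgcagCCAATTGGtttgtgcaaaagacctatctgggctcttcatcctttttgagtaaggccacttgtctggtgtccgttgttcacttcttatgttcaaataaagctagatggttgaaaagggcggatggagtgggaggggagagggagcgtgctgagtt

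The same window, whether or not it held an exon, was read for 203 of the 244 tested Zfp genes and 8141 tested genes in all. CCAAT on either strand was in 48.8% of Zfp windows and 37.8% of all windows. For the ETS letters CCGGAAG the shares were 17.7% and 15.6%, and for the TATA box letters TATAAA 5.9% and 5.5%. Zfp windows were poorer in G and C (median 54.4% against 60.4%). Their CpG dinucleotides had a median observed over expected ratio of 0.620, against 0.759. The 99 Zfp genes with CCAAT had median log2 ratios of -0.54 and -0.30, and the 104 without had -0.60 and -0.26, with libraries as deposited.

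Below the genes that passed, the lowest log2 changes with the same sign in both sets belonged to genes of low level. Zfp524 had 2.49 and 3.76 FPKM in the controls and 0.774 and 1.43 without Chd1 (log2 change -1.45, limma adjusted p = 0.070). Its coding sequence is also held, at 100% identity, by the overlapping gene model Gm44973. Zfp385a had 1.73 and 2.99 FPKM in the controls and 0.449 and 1.37 without Chd1 (adjusted p = 0.129). In both genes the Chd1-null values lay below both controls. The mRNA decay factor Zfp36 went from 5.96 to 2.95 and from 5.31 to 2.29 FPKM (log2 change -1.09, adjusted p = 0.053), again without overlap. Zfp382, Zfp358, Zfp839, Zfp609 and Zfp953 had log2 changes between -1.13 and -1.03 and did not pass (limma adjusted p from 0.161 to 0.303).

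Higher values in both sets were seen for 3 tested genes, none of which passed. Zfp691 went from 0.712 to 1.41 FPKM in set 1, and in set 2 from 0.959 to 1.37 (log2 change 0.68, SE 0.72, limma adjusted p = 0.497). Zfp608 went from 0.871 to 0.980 and from 1.33 to 2.02 FPKM (adjusted p = 0.698), and Zfp93 from 1.41 to 1.48 and from 0.926 to 0.957 (adjusted p = 0.962). All 3 stood near 1 FPKM, and only for Zfp691 did the groups not overlap.

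The second question was whether Zfp genes departed from other genes of the same level. Each ratio was set against a smooth curve of the ratios of the other tested genes on level, drawn separately per set. In set 1 the other genes of the lowest decile of level had a median log2 ratio of -0.97 and those of the highest -0.20; in set 2 the same deciles had -0.24 and -0.38. Relative to the curve, the median Zfp gene stood at 0.06 in set 1 and 0.02 in set 2, small beside interquartile ranges of 0.553 and 0.443. The set 1 value turned to -0.01 with a minimum mean of 5 FPKM. Below the curve were 106 of 244 Zfp genes (43.4%) in set 1 and 116 (47.5%) in set 2, against 49.5% and 49.6% of other genes. Above it in both sets were 75 (30.7%, against 27.0%), and below it in both 53 (21.7%, against 26.0%).

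By decile of level, the medians of Zfp and other genes differed by at most 0.13 in both sets wherever at least 20 Zfp genes were present, except in the lowest decile of set 2. There 41 Zfp genes had a median of -0.04 and other genes -0.24. The 4 Zfp genes of the ninth decile had -0.56 in set 1 against -0.26, and they include Zfp106.

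**Figure D4:**
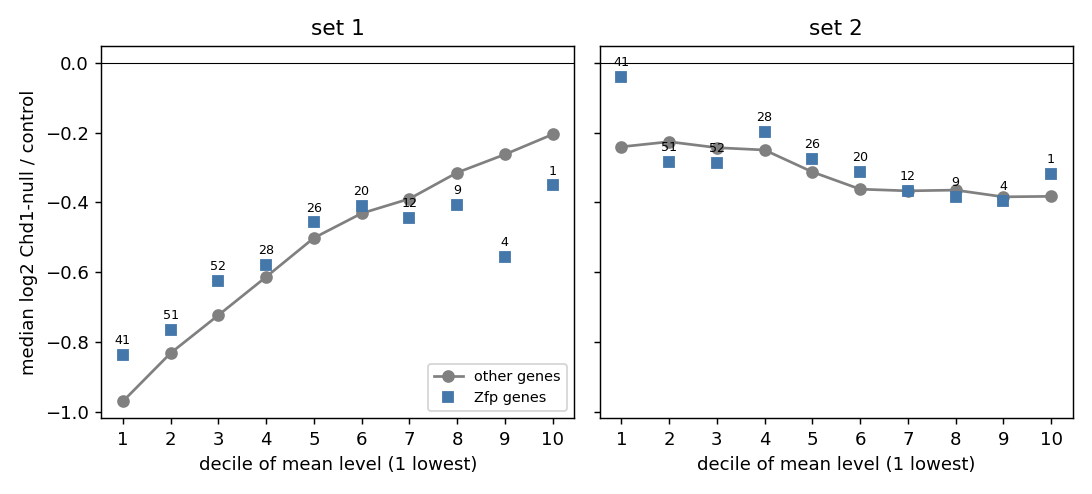
Median log2 ratio of Chd1-null over control by decile of mean level (x axis, 1 the lowest) for Zfp genes (squares, with their number) and other tested genes (line), set 1 left and set 2 right. The line goes from -0.97 to -0.20 in set 1 and from -0.24 to -0.38 in set 2, and most squares lie close to it.

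No Zfp gene passed relative to genes of the same level in limma. The background was 0.0975% lower and 0.0390% higher, and 3 Zfp genes (1.23%) were lower and 4 (1.64%) higher at an unadjusted p under 0.05, against 4.24% and 3.79% of all tested genes. The lowest adjusted p was 0.285, for Zfp598, followed by Zfp771 with 0.298. With a minimum mean of 5 FPKM these 2 passed as lower, among 89 Zfp genes, as did 56 of all 6861 genes tested there. Relative to the median of each set again none passed (background 0.214% lower and 0.146% higher). Unadjusted, 3 Zfp genes (1.23%) were lower and 1 (0.41%) higher, against 3.53% and 2.76% of all tested genes. There Zfp598 had a log2 change of -0.79 (limma adjusted p = 0.149) and Zfp771 of -0.74 (adjusted p = 0.231).

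Zinc finger genes with other names served as a comparison. The 49 tested Zbtb, Zscan and Zkscan genes, transcription factors whose fingers are joined to a BTB or SCAN domain, had a median level of 4.11 FPKM. Their median log2 ratios were -0.63 in set 1 and -0.27 in set 2, close to the -0.60 and -0.27 of the Zfp genes. Of these 49 genes 6 fell, a larger share than the 6 of 244 Zfp genes (2.46%), against the same background of 9.80%. The difference between these families was not tested.

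Among features that did not choose the genes, coding length moved with the change. This grouping was made after the values were seen. The 22 tested Zfp genes for proteins of 1000 residues or more had a median log2 ratio of -1.01 in set 1 and -0.12 in set 2. The 78 genes for proteins under 500 residues had -0.53 and -0.33, at a median level of 4.23 FPKM, close to the 4.28 of the long ones. Relative to genes of the same level, the long ones stood at -0.44 in set 1, with 18 of 22 below the curve, and at 0.19 in set 2, with 7 below. Other genes of that length moved the same way, to -0.28 and 0.11 (1357 genes). Set 1 was the lower set for 21 of the 22 long Zfp genes and for 90.9% of the other long genes. The part of this pattern in the changes of single genes was not tested.

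**Figure D5:**
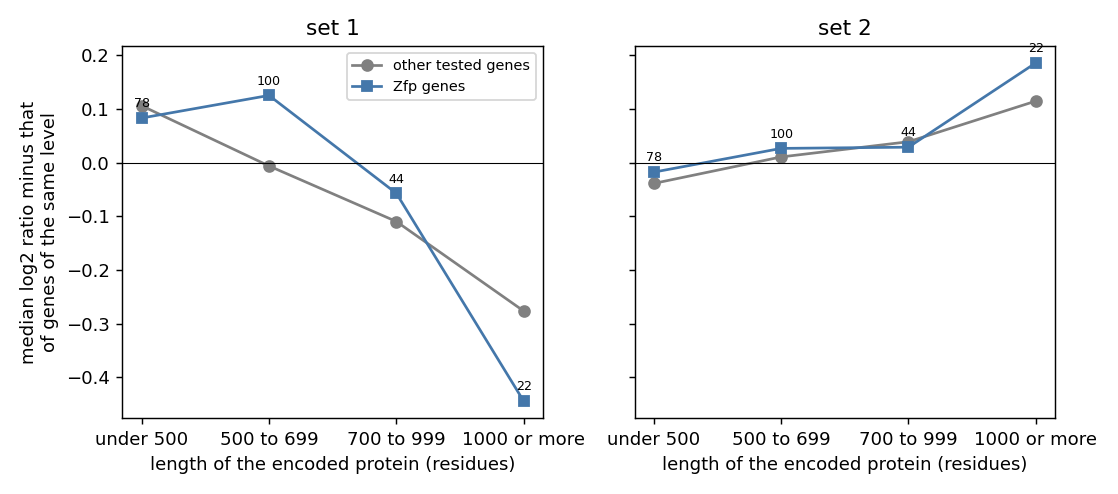
Median log2 ratio minus that of genes of the same level (y axis) by length of the encoded protein (x axis), for Zfp genes (squares, with their number) and other tested genes (circles), set 1 left and set 2 right. Genes for proteins of 1000 residues or more lie lowest in set 1 (-0.44 for Zfp genes, -0.28 for others) and highest in set 2 (0.19 and 0.11).

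Among Zfp genes with a mean of at least 2 FPKM, the 3 with the lowest set 1 ratio against set 2 were of this kind. Below that level 6 Zfp genes differed more than each of these 3. Of these Zfp408, Zfp618, Zfp609 and Zfp341 were tested and encode proteins of 710, 953, 1413 and 846 residues, and Zfp398 and Zfp395, under 1 FPKM and not tested, encode 643 and 508 residues. All but Zfp609 are shorter than 1000 residues. These 6 were named after their values were seen, except Zfp609. Zfp286 (519 residues, under 1 FPKM and not tested) differed more than Zfp462 and Zfp318. It too is named after its value was seen. Zfp142, with 37 fingers in 1843 residues, went from 3.52 to 0.859 FPKM in set 1, and in set 2 from 2.51 to 2.67. Zfp462, a 2495-residue chromatin protein linked to heterochromatin in embryonic stem cells, went from 14.8 to 5.38 FPKM in set 1, and in set 2 from 5.75 to 6.64. Zfp318 went from 4.43 to 1.28 FPKM in set 1, and in set 2 from 2.71 to 2.66. All 3 were reduced in set 1 and nearly level, or slightly higher, in set 2. Their adjusted p in limma was 0.214, 0.146 and 0.200. At the same minimum level, the opposite order was widest for Zfp764 (1.72 to 2.02 FPKM in set 1, 3.61 to 1.63 in set 2), Zfp213 (2.85 to 2.18, 6.65 to 2.62) and Zfp647 (3.01 to 2.71, 5.51 to 2.68), which encode proteins of 431, 468 and 535 residues.

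Genes with and without a KRAB match had close medians, and the difference was not tested. The 89 tested genes with a KRAB match had median log2 ratios of -0.60 and -0.22, and the 155 without had -0.59 and -0.28. Relative to genes of the same level the values were 0.08 and 0.03 for KRAB genes, against 0.03 and 0.02. On the deposited scale 0 of the 89 genes with a KRAB match passed, and 6 of the 155 without one fell, against 9.80% of all tested genes. Median levels were 3.38 and 4.12 FPKM, and in the third decile of level 3.90% of other genes fell. A diverged box that escapes the pattern counts as no match. Zfp600, listed below for control of retroelements, is among the genes that fell without a match. Whether it carries a diverged box was not tested. The 54 tested genes in chromosomal runs of at least 5 Zfp genes had medians of -0.64 and -0.29, and the 117 without a Zfp neighbour had -0.60 and -0.28. The 11 tested genes with a near-identical protein had -0.78 and -0.38. All 11 were lower in both sets, against 72.4% of all tested genes, and their reads may be split between copies.

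KRAB proteins act through partners, of which 19 of 20 listed were tested. Of these 6 fell and none rose, against the backgrounds of 9.80% and 0.0682%, at a median level of 43.4 FPKM where more genes pass than at the level of Zfp genes. Trim28, the co-repressor that KRAB boxes bind, went from 1069 to 637 FPKM in set 1, and in set 2 from 943 to 573 (log2 change -0.73, limma adjusted p = 0.0041). The HP1 protein Cbx3, a reader of H3K9 methylation, had 250.4 and 256.5 FPKM in the controls and 278.3 and 218.4 without Chd1 (adjusted p = 0.874). The small modifier Sumo2 had 500.3 and 510.6 FPKM in the controls and 494.9 and 419.4 without Chd1 (adjusted p = 0.545). The groups of Trim28 and Sumo2 did not overlap, and those of Cbx3 did.

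Of 7 tested genes listed for control of retroelements or imprints, 1 fell, Zfp600, against the background of 9.80%, and the medians were -0.59 and -0.54. Zfp809, which recognises the primer binding site of murine leukaemia virus, went from 8.77 to 3.83 FPKM in set 1, and in set 2 from 9.76 to 7.27 (log2 change -0.80, limma adjusted p = 0.067). It is named here outside the rule, after its value was seen. Zfp445, which acts at imprinted regions, went from 15.8 to 10.4 and from 12.02 to 12.3 FPKM. Zfp961, which recognises the primer binding site of other retroviruses, went from 13.4 to 10.6 and from 15.3 to 9.44 FPKM. None of these 3 passed.

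None of the 8 tested genes listed for embryonic stem cell state passed, against a background of 9.80% of all tested genes that fell. With so few genes, none passing is near that share. Their medians were -0.64 and -0.29. Zfp281, a regulator of Nanog and of the exit from the naive state, had 21.6 and 20.4 FPKM in the controls and 13.5 and 16.0 without Chd1 (limma adjusted p = 0.114). Zfp706, a small protein linked to self-renewal, had 34.0 and 25.9 FPKM in the controls and 20.4 and 19.7 without Chd1 (adjusted p = 0.056). Both had Chd1-null values below both controls.

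None of the 9 tested partners of chromatin complexes passed either, which for so few genes is near the background of 9.80%. Their medians of -0.90 in set 1 and -0.15 in set 2 had the same order as those of the long genes, to which 6 of the 9 belong. Zfp532, of the Z3 complex with Zfp592 and Zfp687, had 29.2 and 20.7 FPKM in the controls and 22.9 and 22.4 without Chd1, with overlap. Zfp518a, which binds H3K9 methyltransferases, had 18.2 and 16.3 FPKM in the controls and 13.1 and 12.7 without Chd1. Zfp644, a partner of the same enzymes, had 13.3 and 16.1 FPKM in the controls and 11.9 and 12.4 without Chd1. The groups of the latter pair did not overlap, and their limma adjusted p was 0.219 and 0.430. Of the 11 listed genes in both tables, Zfp711 and Zfp827 stood below 1 FPKM and were not tested.

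The list of Zfp proteins that act on RNA or proteins held 3 of the 6 genes that fell, Zfp598, Zfp106 and Zfp451, among 11 tested, against the background of 9.80% over all tested genes. It was assembled with earlier results of these data known, so the count is a description. Its medians were -0.80 and -0.39 at a median level of 10.2 FPKM. Zfp259, a binding partner of the elongation factor eEF1A, had 29.0 and 30.7 FPKM in the controls and 21.7 and 21.4 without Chd1 (log2 change -0.47, limma adjusted p = 0.114). Its groups did not overlap. Zfp330 had 20.2 and 23.5 FPKM in the controls and 23.0 and 18.7 without Chd1, opposite ways in the sets.

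A further 9 Zfp genes were named once in set 1 alone and 18 in set 2 alone. In 16 cases the symbol was not listed in the other table, in 6 it was part of a merged locus, and in 5 it had several loci. Most of these stood below 1 FPKM. Among the higher ones, Zfp869 had 17.2 FPKM in control 2 and 12.4 in Chd1-null 2, Zfp868 had 8.03 and 8.91, and Zfp335, in set 1, had 4.42 in control and 2.31 without Chd1. With 1 library per group these have no replicate check.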

How the data were processed

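Mouse embryonic stem cell RNA was sequenced as paired reads of 100 bases from ribosome-depleted, stranded libraries, per the labels' protocols. The submitters' processing notes list build mm9, Cuffdiff, Cufflinks 2.2.0, TopHat and TopHat2 2.0.10. What each step did, the annotation, and whether spike-ins set the scaling is not given in the sources used here. The deposited values were taken as FPKM, inferred from those tools and the values. The ratio column the authors deposited matched the quotient of both value columns (largest relative difference 4.97e-06) and was not used further.

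Genes were joined by symbol, because locus identifiers differ between the tables. Loci without a symbol (3939 and 3866), merged loci (147 and 144) and repeated symbols (156 and 190 loci) were left out. The test was limma 3.58.1 in R 4.3.3 on log2(FPKM + 0.1), which understates the change of low genes, with a variance trend, two-sided, on genes with a mean of at least 1 FPKM. Set was the block, as each set has its own table. The libraries of a set deviated together from their group means (r = 0.483 across genes), though no label links sets to lines. The fit has 1 residual degree of freedom and prior degrees of freedom of Inf, so p-values rest on a spread shared by genes of similar level and a gene's own spread does not enter. The level comparison subtracted, per set, a lowess curve (span 0.3) of the ratios of other genes. On simulated data for it (10261 genes), 61.0% of 2-fold and 95.0% of 4-fold changes were recovered when the spread was common to a level (15 of 171 calls false), and 0% and 20.0% when the spread differed by gene (3 of 23 false). Members and lists were chosen with earlier results of these data known.

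Named genes were Chd1, the 6 highest by level, the 10 lowest and 5 highest by log2 change of the same sign (3 existed), the 3 with the largest difference between sets each way at a mean of at least 2 FPKM, and up to 3 per list by level. No protein table was used; fingers and KRAB boxes were read by pattern from the longest GENCODE M21 coding sequence, and nearest proteins by BLAST 2.17.0 over at least 50% of the length. Gene models of GRCm38 were used for these features only, not with mm9 coordinates. Alternatives were the pseudocount, the level minimum, library totals, the block, the prior variance, the level curve, and leaving out libraries or sets.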

Additional observations from a re-analysis of the deposited data

How the results depend on the processing

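The count of 6 Zfp genes that fell (limma, adjusted p under 0.05) was 6 with a pseudocount of 0.01, 4 with no filter, 3 with a pseudocount of 1 and 2 with a minimum mean of 5 FPKM. It was 0 with library totals, with 1 common prior variance and with no replicate block, where the pairing by set is dropped. Over all genes 1006 fell in the main fit (9.8%) and 1011 with a pseudocount of 0.01 (9.85%). With no filter 927 of all genes fell (7.9%), and with a pseudocount of 1 901 (8.78%). Over all genes 37 fell and 50 rose with library totals, 225 fell (3.28%) and 2 rose with the 5 FPKM minimum, and 0 passed without the block. Without 1 library, in a fit without block that assumes a lone library varies like the other group, the count ranged from 0 to 0 (lowest adjusted p of a member 0.192 to 0.808). The count of Zfp genes that rose was 0 under all settings run. Relative to genes of the same level, 2 genes were lower with the 5 FPKM minimum and 0 under the other settings run. The block changed no call in the relative comparisons, where 0 passed with and without it.

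Library totals moved the medians of all genes from -0.46 and -0.33 to -0.14 and 0.14, and those of Zfp genes to -0.28 in set 1 and 0.20 in set 2. The level-adjusted median in set 1 was 0.033 with a pseudocount of 1 and -0.013 with the 5 FPKM minimum. Its mean over sets of 0.03 ranged from 0.023 to 0.059 with 1 set left out, and the median log2 ratio of -0.44 from -0.60 to -0.27. The cause of these differences was not tested.

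With library totals the log2 changes of Zfp207 (0.063), Zfp445 (0.11), Zfp532 (0.28), Zfp622 (0.13) and Zfp644 (0.13) turned positive. Without 1 library, log2 changes that turned sign ranged from -1.30 to 0.057 for Zfp462, -0.37 to 0.12 for Zfp532, -2.01 to 0.034 for Zfp600, -0.13 to 0.85 for Zfp608, -0.71 to 0.18 for Zfp622, -0.95 to 0.070 for Zfp764 and -0.24 to 0.34 for Zfp93. FPKM gives no depth, so low values carry an error that is not known.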
